A study of Mus musculus with 12 samples.

Results

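The genes that gave the brightest signal in LPS-matured dendritic cells (DCs) of young mice were described from the 3 arrays labelled Young that carried no agent. Named genes were ranked by the mean normalized log2 intensity of their brightest probe, among probes that the scanner software marked as well above background on all 3 arrays. Of 24232 genes with a matched probe, 12295 (50.7%) passed on all 3 arrays, and the 100 brightest of them are described in depth. Expected immune genes that did not reach this limit were listed beside them.

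Bone marrow of female C57BL/6 mice was cultured with 2 ng/ml GM-CSF and 4 ng/ml IL-4, and the loosely adherent cells taken on day 7 were stimulated with 1 µg/ml LPS for 24 h. The Young mice were 2 months old. The other groups were Young-Abx (2 months, given an antibiotic cocktail), Old (24 months, no agent) and Old-LP (24 months, given Lactobacillus plantarum, which the labels write as LP), each with 3 arrays among 12 in the series, and every culture of every group received GM-CSF, IL-4 and LPS. Per the study's legends the arrays of a group are independent sets, each from pooled mice, so an array carries no value of a single animal. There was no culture without LPS on the arrays, so the levels describe stimulated cells and hold no response to LPS.

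Dendritic cells take up antigen, cut it in lysosomes and load the peptides onto MHC class II molecules, which are held in place on the way by the invariant chain Cd74. LPS, sensed by Tlr4 with Ly96 and Cd14, starts maturation, in which the cells raise co-stimulatory molecules and the homing receptor Ccr7, and secrete cytokines and chemokines. Cultures grown in GM-CSF and IL-4 are known to hold macrophage-like cells and granulocytes beside dendritic cells. In RNA from a whole culture, a smaller share of a cell type and less RNA per cell of it cannot be told apart.

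Array C stood apart from arrays A and B. Of the spots on A, B and C, 62.6%, 63.5% and 44.0% were well above background. The intensity at the 75th percentile was 819, 910 and 176. Over 23445 probes above background, Pearson's r across probes was 0.997 between A and B, 0.896 between A and C and 0.897 between B and C. Arrays A and B lay on slide 1 and C on slide 2. Probes printed on 10 spots differed between A and B with an SD of 0.07 log2, against 0.02 from the spots' own noise, and between A and C with an SD of 1.17. Repeat hybridisations of 1 RNA can differ by more than spot noise too, so A and B were counted as separate on the word of the legends, and the SD over 3 arrays mixes these unequal distances. No spot was saturated. The number of arrays, and the dimness of C, limit the precision.

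The brightest gene was Aldoa, the glycolytic aldolase, with normalized log2 intensities of 17.38, 17.62 and 17.62 on arrays A, B and C. Its spot was the brightest of all on B and on C, with intensities of 235117 and 135234. Quantile normalization gives the brightest spot of each array the same value, so the equal values on B and C come from the method. Next came Ppia, the peptidyl-prolyl isomerase cyclophilin A (17.23, 17.23 and 17.02), and Apoe, the lipid carrier apolipoprotein E made by macrophages (17.19, 17.01 and 16.95). Fau, a ubiquitin-like fusion with a ribosomal protein, stood at 17.15, 17.15 and 16.76, and Cd74, the MHC class II invariant chain, at 17.05, 17.19 and 16.78. These 5 genes were brighter than the level of rank 30 (16.57) on each of the 3 arrays. Ubb (polyubiquitin), Actb (beta-actin), the transcribed pseudogene Gm5523, Chil3 (the chitinase-like protein Ym1) and Rplp2 (a ribosomal stalk protein) completed the first 10. Ranks are ranks of probe brightness, which depends on a probe's sequence as well as on the amount of RNA, so they are no count of transcripts.

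**Figure D1:**
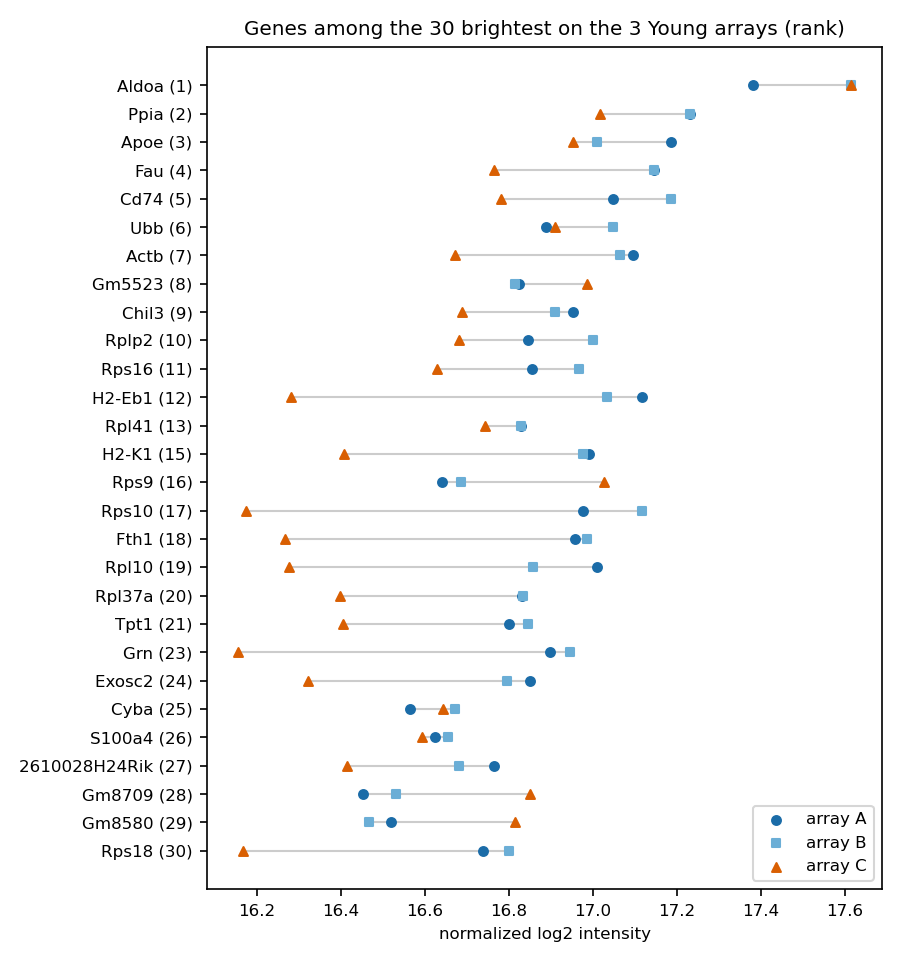
Normalized log2 intensity (x axis) of genes among the 30 brightest (y axis, rank in brackets; some are not shown) on the Young arrays A, B and C, one marker per array with a grey line from the lowest to the highest. Aldoa lies to the right of all others at 17.54 on average, and array C gave the lowest of the 3 values for most of the genes, among them Grn and Rps10.

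The 100 brightest genes covered a narrow range, from 17.54 at rank 1 to 15.84 at rank 100, whereas the median of the 12295 genes was 9.98 and the dimmest stood at 4.47. Their probes held 9.69%, 9.21% and 12.2% of the summed intensity of arrays A, B and C. Their median range over the 3 arrays was 0.40, beside 0.80 for all genes above background, and 5 members had a range over 1. The range comes from the same values that chose the genes, and a high mean leaves little room for a low value on any array, so it is a description. The 5 were Gm12447, an uncharacterized gene (16.29, 16.33 and 14.94), Ctss (16.36, 16.34 and 14.97), Ccl6 (16.29, 16.28 and 15.16), H2-Ab1 (16.74, 16.92 and 15.82) and the pseudogene Gm6548 (16.31, 16.44 and 15.43). In each of the 5, array C was the low one. Over all 100, 59 were lowest on C and 32 highest on C. Just inside the limit lay Gm12447 (15.85) and the MHC class I gene H2-Q7 (15.84), and just outside it Rps15, a ribosomal protein (15.84), and the chemokine Ccl9 (15.82).

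**Figure D2:**
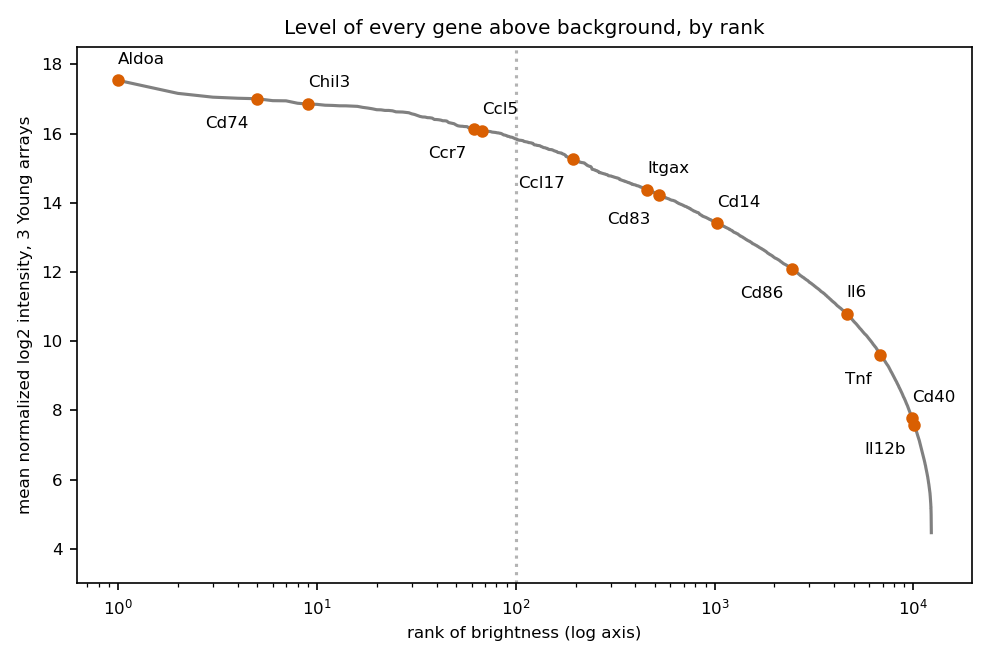
Mean normalized log2 intensity over the 3 Young arrays (y axis) of every gene above background against its rank of brightness (x axis, log scale), with 14 genes marked and the limit of 100 as a dotted line. Cd74, Chil3, Ccr7 and Ccl5 lie inside the limit and Cd40 and Il12b near the dim end; the marked genes were chosen after their values were seen.

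Ribosomal proteins were the largest group among the 100, with 24 members. Of 85 ribosomal protein genes with a probe, 81 were above background on all 3 arrays, 75 were among the 1000 brightest, and their median level was 15.52. The brightest were Rplp2 (16.84, 17.00 and 16.68), Rps16 of the small subunit (16.86, 16.97 and 16.63) and Rpl41 of the large subunit (16.83, 16.83 and 16.74). Rps9, Rps10, Rpl10, Rpl37a and Rps18 were also among the first 30, between 16.57 for Rps18 and 16.78 for Rps9. The genes not above background on all 3 arrays were Rpl37, Rpl39l and Rpl3l, above it on A and B, and Rpl10l, above it on none. Rpl10l, Rpl39l and Rpl3l are paralogues with expression known to be restricted to few tissues. Rpl37 had 1 probe (3.92, 3.60 and 1.66), and whether that probe reads its gene was not tested. Rpl37rt, outside the list, was among the 100 at rank 34 (16.72, 16.73 and 15.99). Whether its probe reads Rpl37 was not tested.

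Messenger RNAs of ribosomal proteins are known to begin with a C followed by a run of pyrimidines, the 5′ terminal oligopyrimidine start that ties their translation to mTOR. RefSeq start sites (build GRCm38.p6) were available for 70 of the 100 genes, too few for a share over the set, and 7 of the 70 opened with a C and 4 further pyrimidines (C or T, read on the transcribed strand), as did 3.01% of 27025 genes with a start site. All 7 are shown from 10 bases before the annotated start to 20 bases from it, with the first 5 transcribed bases in capitals. Apart from Fau, which encodes a ribosomal protein as part of its fusion, they are ribosomal protein genes. Most annotated ribosomal starts did not match: 6 of the 15 ribosomal members with a start site did, and 14 (21.5%) of 65 ribosomal protein genes with one. A match describes the annotated letters and is no measure of translation. The loci were chr19:6057937-6057966 (plus strand) for Fau, chr7:141447641-141447670 (plus) for Rplp2, chr17:27635225-27635254 (minus) for Rps10, chr17:33955646-33955675 (minus) for Rps18, chr11:114668570-114668599 (plus) for Rpl38, chr3:90213629-90213658 (minus) for Rps27 and chr2:180257369-180257398 (plus) for Rps21, each spanning the promoter end and the first bases of the first exon.
Fau: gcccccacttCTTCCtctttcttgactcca
Rplp2: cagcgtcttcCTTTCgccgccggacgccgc
Rps10: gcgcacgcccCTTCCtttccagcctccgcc
Rps18: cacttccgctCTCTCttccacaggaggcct
Rpl38: aagcctcgttCTTTCcccgttctcttcggt
Rps27: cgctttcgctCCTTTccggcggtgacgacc
Rps21: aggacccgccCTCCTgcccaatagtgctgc

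Other housekeeping groups filled much of the rest. Of the translation factors, Tpt1 (translationally controlled tumour protein) reached rank 21 with 16.80, 16.84 and 16.41, followed by the elongation factors Eef2 (rank 168, 15.44 ± 0.09, SD, n = 3) and Eef1b2 (rank 226, 15.11 ± 0.24). In glycolysis, Pgk1 (16.55 ± 0.33) and Gapdh (16.52 ± 0.33) joined Aldoa among the first 32, and all 18 glycolytic genes with a probe were above background. The actin cytoskeleton was led by Actb (17.10, 17.07 and 16.67), the actin-binding Cotl1 (16.21 ± 0.11) and the myosin light chain Myl6 (16.03 ± 0.25), and all 27 of its genes passed. The respiratory chain gave Cox6a1 (16.46 ± 0.05) and Cox8a (16.02 ± 0.24) among the 100 and Cox4i1 at rank 115, all subunits of cytochrome oxidase. Beside Ppia, the chaperones Hsp90ab1 and Hsp90b1 stood at ranks 142 and 350. Genes of DNA replication and mitosis lay lower: all 21 were above background, none was among the 100, and the brightest were Pcna (the sliding clamp, rank 881), Mcm6 (a helicase subunit, rank 1374) and Stmn1 (a tubulin-binding protein, rank 1378).

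Genes of lysosomes and of iron and redox handling were dense at the top. All 19 lysosomal genes were above background and 17 were among the 1000 brightest. Grn, the lysosomal progranulin, gave 16.90, 16.95 and 16.16, the protease Ctsd 16.31, 16.41 and 16.36, and the protease inhibitor Cst3 16.21, 16.20 and 16.05. Ctsd and Cst3 spanned 0.09 and 0.16 over the 3 arrays and Grn 0.79. Fth1 and Ftl1, the chains of the iron store ferritin, stood at ranks 18 and 78, with 16.74 ± 0.41 and 16.03 ± 0.51, and the peroxidases Gpx1 and Prdx1 at ranks 49 and 95.

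Genes of antigen presentation made up 6 of the 14 immune genes among the 100. All 13 MHC class II genes and all 19 MHC class I genes with a probe were above background on the 3 arrays, 4 and 2 of them among the 100. Cd74 led, followed by H2-Eb1 (17.12, 17.04 and 16.28) and H2-Ab1 (16.74, 16.92 and 15.82), the beta chains of I-E and I-A. Array C was the low array for both beta chains. The fourth class II gene among the 100 was Ctss, the protease that trims the invariant chain. H2-Aa, the I-A alpha chain, ran the other way, with 14.42, 14.80 and 15.35. C57BL/6 mice are known to make no I-E alpha chain, and the brightness of the H2-Eb1 probe says nothing of I-E at the surface. In class I, H2-K1 gave 16.99, 16.98 and 16.41 and H2-D1 16.10, 16.46 and 15.92, with Tapbpl, a peptide editor related to tapasin, at rank 122. H2-Q2, H2-Q6 and H2-Q7, class I genes outside the lists, were also among the 100; H2 genes are similar in sequence, so signal may be shared among their probes. Tap1, a chain of the peptide transporter, stood at 12.58, 12.57 and 7.52, far lower on C than on A and B, whereas its partner Tap2 stood at 13.79, 13.79 and 14.81.

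Markers of mature dendritic cells were almost complete. Of 23 with a probe, 22 were above background on all 3 arrays, and Ccr7 and Ccl5 were among the 100. Ccr7, which guides dendritic cells to lymph nodes, gave 16.06, 16.18 and 16.15, and the chemokine Ccl5 gave 16.20, 16.10 and 15.91. Both lay within 0.30 log2 on the 3 arrays. Ccl17, a chemokine that draws T cells, followed at rank 194 (15.24, 15.08 and 15.49). Ccl22, the chemokine that shares the receptor Ccr4 with Ccl17, was the one marker short of the limit: it gave 9.76 and 9.83 on A and B and 2.11 on C, where it was not well above background. Its single probe had intensities of 1441, 1665 and 4 before normalization.

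Co-stimulatory molecules were all above background (13 of 13) and spread widely in brightness. Cd83 gave 14.23, 14.23 and 14.24 and the adhesion molecule Icam1 13.63, 13.67 and 14.05, followed by Cd47 at rank 1428 (13.52, 13.53 and 11.81). Cd86 (12.16, 12.07 and 12.05) and Cd80 (11.31, 11.81 and 11.80), the ligands of CD28, stood at ranks 2440 and 3103. Cd40, the receptor for CD40 ligand, was at rank 9829 with 7.87, 7.97 and 7.46. Cd80, Cd86 and Cd40 were named after their values were seen. Co-inhibitory molecules passed in 15 of 18 cases, led by the inhibitory receptors Lilrb4a (rank 147, 15.54 ± 0.32) and Pirb (rank 616, 14.07 ± 1.09) and by Vsir (rank 1560), and Cd274 (PD-L1), named after its values were seen, gave 13.14, 13.11 and 10.88.

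Dendritic cell identity genes were present, none of them among the 100. Of 18 markers, 16 were above background on all 3 arrays, led by the integrin Itgax, which encodes CD11c (14.32, 14.34 and 14.46), Sirpa (13.71, 13.83 and 14.11) and the integrin Itgam (13.44, 13.33 and 14.15). Xcr1, the receptor of cross-presenting dendritic cells (2.21, 1.99 and 2.00), and Cd209a, the lectin DC-SIGN (3.12, 3.22 and 2.41), were above background on no array. Zbtb46 and Flt3, which separate conventional dendritic cells from other myeloid cells and were named after their values were seen, were dim, at 5.91, 6.05 and 6.38 and at 8.04, 7.88 and 9.13. Itgax, Ccr7 and the MHC class II genes were bright, whereas Zbtb46 and Flt3 stood at ranks 11755 and 8983. These picked genes do not stand for the list. Its 16 markers that passed had a median of 12.56, and 5 were among the 1000 brightest.

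Macrophage and monocyte markers were brighter than the dendritic cell markers as a list. Of 21, 18 were above background, with a median of 13.51 against 12.56 for the 16 dendritic cell markers that passed, and Apoe, Ly6c2 and Csf1r were among the 100. Ly6c2, a surface marker of monocytes, gave 16.02, 16.02 and 16.61, and Csf1r, the receptor for M-CSF, 16.13, 16.11 and 16.07. Timd4 and Vsig4, markers of resident macrophages, were above background on no array. These medians come from different probes and give no proportion of cells. Among osteoclast markers, which share genes with macrophages, Acp5 stood at rank 103 (15.82 ± 0.30), before Dcstamp and Atp6v0d2 at ranks 1568 and 1730.

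Genes of other blood cells were also above background. Granulocyte lists passed in 14 of 16 (neutrophil), 10 of 11 (mast cell and basophil) and 5 of 7 cases (eosinophil). The G-CSF receptor Csf3r (15.05, 14.71 and 15.41), the protease Mmp8 (14.13 ± 0.68) and S100a9 (13.59 ± 0.25) led the neutrophil list, and Ly6g, the marker by which neutrophils are gated, was not well above background on C (9.28, 9.41 and 5.84). The basophil protease Prss34 (rank 708), Cpa3 (rank 1764) and Mcpt8 (rank 3704) led the mast cell and basophil list, and Ear1 (rank 516), Siglecf (rank 4382) and Prg2 (rank 5737) that of eosinophils. Ear2 and Rnase2a, ribonucleases related to Ear1 and outside the lists, were among the 100 at ranks 35 and 55, and near-identical family members may share their probes' signal. Of lymphoid genes, 14 of 15 T cell, 8 of 9 NK cell and 10 of 13 B cell markers passed. Il7r, Thy1 and Cd3d stood at ranks 943, 1117 and 1312, with 12.75, 12.56 and 13.96 for Cd3d, the granule proteases Gzma and Gzmb and the factor Tbx21 at ranks 400, 756 and 6645, and Cd79b and Jchain of the B cell list at ranks 3280 and 5944. All 8 plasmacytoid markers passed, led by Bst2 (rank 1037), Siglech (13.45, 13.42 and 9.85) and Pacsin1 (rank 2415). Of the platelet and erythroid genes, 9 of 12 passed, led by the platelet chemokine Pf4, also made by myeloid cells, at rank 124, then Ppbp (rank 1368) and the globin Hba-a1 (rank 4793). Stromal and endothelial markers passed in 4 of 13 cases, led by Lepr, Kdr and Pecam1 at 8.73, 7.34 and 7.31, and Col1a1, Col3a1, Lum, Pdgfra, Cdh5 and Tek were above background on no array. What part such cells had in the levels of the 100 genes was not tested.

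All 15 genes of GM-CSF and IL-4 signalling passed, 4 of them among the 1000 brightest, and Csf2rb, the common beta chain of the GM-CSF receptor, was among the 100 with 15.96, 15.98 and 15.89. Its mouse paralogue Csf2rb2 and the alpha chain Csf2ra followed at ranks 224 and 245. Of 13 genes linked to IL-4 in myeloid cells 12 passed, and 3 of these were among the 100. Chil3 gave 16.95, 16.91 and 16.69, the lectin Mgl2 16.10, 16.17 and 16.49, and the resistin-like protein Retnla 16.35, 16.25 and 15.38. Chil3 and Mgl2 lay within 0.40 log2 over the arrays, and Retnla was lower on C. Arg1, the arginase that also led the immune-regulatory enzymes, stood at rank 165 (15.68, 15.69 and 14.96), before the amino acid oxidase Il4i1 (rank 225) and haem oxygenase Hmox1 (rank 548). Of receptors for microbes and immune complexes, Mgl2, the Fc receptor gamma chain Fcer1g (15.91, 15.83 and 16.53) and the lectin Clec4n (rank 214) were brightest.

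Genes of the NF-kB, interferon-response and Toll-like receptor lists were present, none of them among the 100. All 17 genes of the NF-kB family and its regulators passed, led by the inhibitor Nfkbia (14.09, 14.16 and 13.49), the subunit Rela (13.68, 13.67 and 14.37) and Tnip1 (rank 1233). Of the 28 interferon-response genes 27 passed, with Ifitm3 (14.84 ± 0.03), Irf1 (14.49 ± 0.45) and Gbp2 (14.36 ± 0.69) in front. Of the Toll-like receptor genes 23 of 27 passed, led by the LPS co-receptors Cd14 (12.97, 12.94 and 14.32) and Ly96 (12.69, 12.29 and 14.77) and by Tlr13 (rank 1177). Tlr4, the LPS receptor, gave 9.88 and 9.93 on A and B but 5.57 on C, where it was not well above background, so it did not meet the limit. The chemokine receptors passed in 15 of 21 cases, among them Ccr2 (11.25 ± 1.59) beside Ccr7, and the chemokines in 22 of 32, with Ccl6 and Ccl9 after Ccl5.

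Interleukins and other cytokines had the lowest share above background of the immune lists. Of 43 interleukins and other cytokines, 19 (44.2%) were above background on all 3 arrays, 13 on 1 or 2 and 11 on none. The brightest were Ebi3, a subunit of IL-27 and IL-35 (13.04, 13.07 and 14.36), Il1rn, the IL-1 receptor antagonist (12.20 ± 0.31), and Csf1 (11.46, 11.41 and 12.65). The inflammatory cytokines Il6 (10.75, 10.60 and 11.03), Il1b (10.52, 10.43 and 8.97) and Il12b (7.11, 7.01 and 8.64), named after their values were seen, stood at ranks 4606, 6158 and 10062. Among TNF family ligands 13 of 16 passed, with Ltb at rank 1649 and Tnfsf14 and Tnf at 9.65 ± 0.07 and 9.60 ± 0.17. Il10, the regulatory cytokine, gave 3.76, 3.95 and 4.65 and was well above background on A and B only. The RNA was taken 24 h after LPS, and a low level at that time holds no information on earlier hours or on the protein.

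Over the 15 immune lists 308 of 315 genes had a probe, and 250 (81.2%) were above background on all 3 arrays, against 50.7% of all genes. There were 14 among the 100 brightest and 55 among the 1000, and the median rank of the 250 was 3672. A further 32 passed on 1 or 2 arrays and 26 on none. Of the 32, 29 were above background on A and B and missed the limit on C, so without array C the count was 279, and 15300 of all genes passed. Ccl22, Tlr4, Il1a and Il33 were among these 29. On the 26 genes below background throughout, the normalized log2 intensity lay between 1.64 and 3.33 on A, 1.69 and 3.36 on B and 1.64 and 4.52 on C, with median intensities of 3.51, 3.75 and 4.16.

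The 26 genes were spread over 7 lists. They were the cytokines Csf3, Ifna4, Il2, Il3, Il9, Il17a, Il17f, Il20, Il23a, Il25 and Il34, the TNF family ligands Cd40lg and Tnfsf18, the chemokines Ccl11, Ccl20, Ccl28, Cxcl13, Cxcl15 and Cxcl17, the chemokine receptors Ackr2, Ccr10 and Xcr1, the lectins Cd207 and Cd209a, the macrophage receptor Vsig4 and the retinal dehydrogenase Aldh1a3. Several are known as products of other cells: Il2, Il9, Il17a, Il17f and Cd40lg of T cells, Cxcl15 and Cxcl17 of lining tissues, Cd207 of Langerhans cells. Il23a, the p19 subunit of IL-23, which dendritic cells can make after LPS, gave 1.78, 2.66 and 3.26, intensities of 3 to 7 where the dimmest spots called above background lay near 15. For these genes the arrays give only an upper bound on the signal of the probe, which is no bound on the RNA where a probe reads poorly. The limit on C was as high in intensity as on A and B although its signal was lower.

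**Figure D3:**
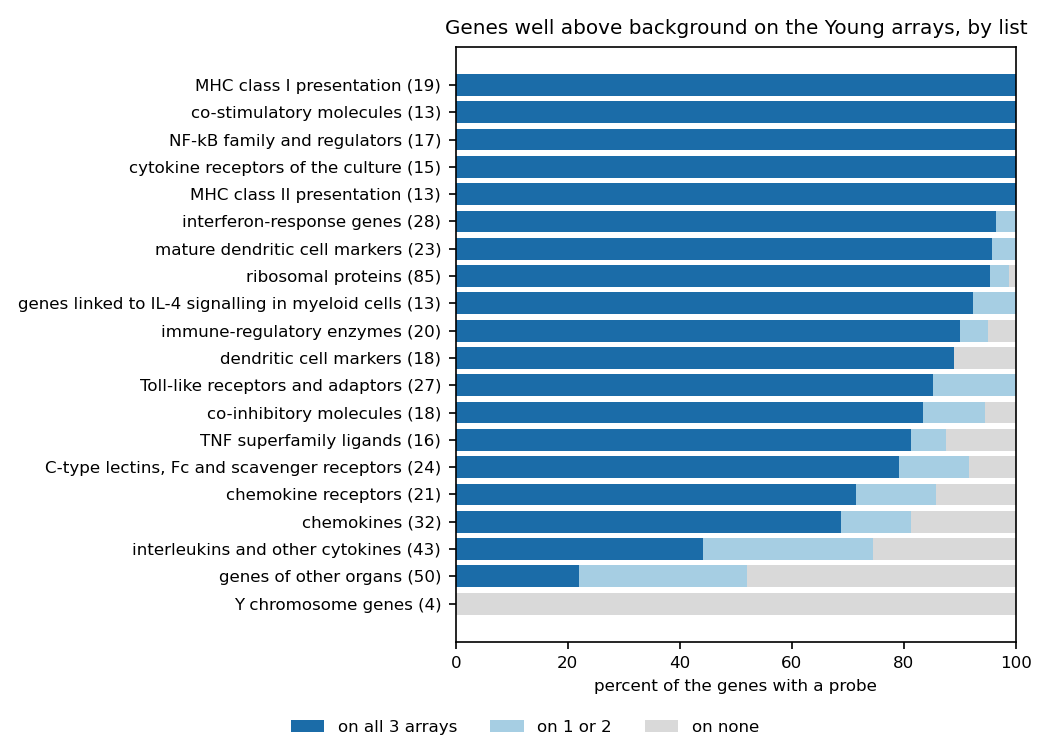
Percent of the genes with a probe (x axis, number with a probe in brackets) that were well above background on all 3 Young arrays, on 1 or 2, or on none, for each immune list, the dendritic cell lists, ribosomal proteins and 2 control lists. The MHC lists reach 100%, interleukins and other cytokines stop at 44.2%, and none of the 4 Y chromosome genes passed.

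**Figure D4:**
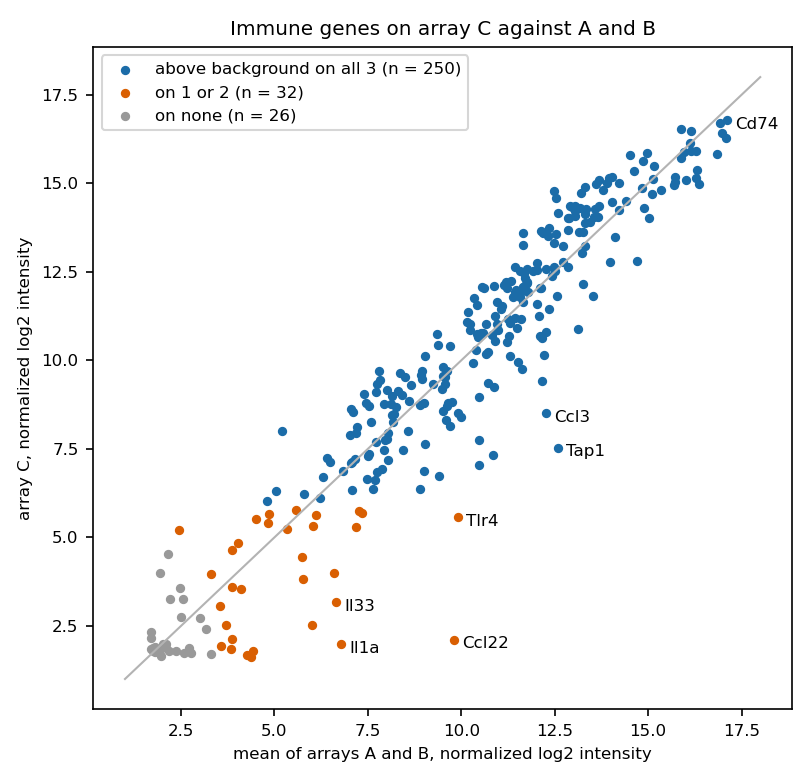
Normalized log2 intensity of the 308 immune genes on array C (y axis) against the mean of arrays A and B (x axis), coloured by the number of arrays on which they were above background; the line marks equal values. Ccl22, Tlr4, Il1a, Il33, Tap1 and Ccl3 lie far below the line.

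The detection limit let some genes of other organs through. Of 50 genes chosen as markers of other organs 11 (22.0%) were above background on all 3 arrays, led by the myelin gene Mbp (13.25 ± 0.51), the gonadotropin gene Lhb (10.29 ± 0.24) and Apoa2 (9.29 ± 0.55). Mbp shares its locus with transcripts known in blood cells. Of 1076 olfactory receptors 37 (3.44%) passed, and of 260 vomeronasal receptors 4 (1.54%), lists added after the data were seen. The 4 Y chromosome genes were above background on no array, and Xist gave 9.91 ± 0.80, in cells that the labels give as female. The dimmest genes that passed were Olfr39 (4.47), an olfactory receptor, and the anion transporter Slc26a1 (4.47), and the brightest that failed on C were Ltbr, the lymphotoxin receptor (10.66, 10.79 and 5.99), and Zfp946, a zinc finger gene (10.46, 10.53 and 5.97).

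Outside the lists, 41 of the 100 genes remained, named here after their values were seen. They include S100a4 (16.62, 16.66 and 16.59) and Crip1, small calcium- and zinc-binding proteins, Cyba, a subunit of the phagocyte oxidase (16.57, 16.67 and 16.64), complement C3 (16.42, 16.58 and 16.34), the galectin Lgals3, the annexin Anxa2, the fatty acid carrier Fabp5 and Mfge8, which bridges phagocytes to dying cells. S100a4 and Cyba differed over the arrays by 0.06 and 0.11 only. Of the 100, 91 are annotated as protein-coding, 8 as transcribed pseudogenes, among them Gm5523, Gm8709 and Gm8580 of the first 30, and Rn4.5s as an rRNA. A pseudogene can carry the sequence of its parent gene, so which locus gave the signal is uncertain.

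Several bright probes did not match the other probes of their gene. Of 50 members with more than 1 probe, the dimmest other probe lay 2.45 log2 lower at the median and more than 3 lower in 17. Slc10a1, a bile acid transporter of the liver, gave 16.65, 16.53 and 16.02 at its bright probe and a mean of 2.58 at the other. For 2610028H24Rik (rank 27) the other probe stood at 2.77 and for the ribosomal gene Rps27a at 2.99. In these 3 genes the second probe was not above background on all arrays. The other probe of Elk1, a transcription factor, stood at 6.70. The other 3 probes of Milr1, a mast cell receptor, lay between 7.07 and 14.32. Receptor genes named above were affected too: the other probe of Csf1r stood at 10.62 and those of Csf2rb at 10.05 and 13.01. Exosc2, an exosome subunit at rank 24 (16.85, 16.80 and 16.32), had 1 probe. In RefSeq GRCm38.p6 the gene Srsf5 neighbours Slc10a1, Uxt neighbours Elk1, Polg2 overlaps Milr1, Ybey overlaps 2610028H24Rik and Gm13427 overlaps Exosc2, and 35 of the 100 overlap at least 1 other gene. The probe sequences were not used here, so whether such a probe reads its own gene was not tested. When the level of a gene was its mean over probes above background instead of its brightest probe, 74 of the 100 stayed in the first 100, and 7 of the first 30 left it, among them Tpt1, Grn, Rps10, Gm8709, Gm8580 and Rps18. A further 56 probes with no gene name were as bright as rank 100, beside 110 named ones.

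The ranking moved more with array C than with either other array. Without A, 96 of the 100 stayed, without B 95 and without C 87. When C was omitted 13 genes left, to ranks between 101 and 154, among them Fcer1g, Sh3bgrl3, Gm6498, Mfge8, Cox8a, Serf2, Rpl7a, Gm5069, Prdx1, Tuba1b, Rpl8 and H2-Q7. The 13 genes that took their places were between ranks 104 and 153 on all 3 arrays, among them the actin-sequestering Tmsb4x (16.24, 16.09 and 14.65) and Pf4. On the arrays taken singly, 88, 86 and 75 of the 100 were among the 100 brightest of A, B and C. With A and B averaged to 1 array before the mean with C, 96 stayed.

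The same genes were bright in the other groups. Of the 100, 87 were among the 100 brightest of Young-Abx, 86 of Old and 94 of Old-LP, and 83 of all 4 groups. The lowest rank a member took was 192 in Young-Abx and 261 in Old, both by Retnla, and 118 in Old-LP, by Ctss. In limma's moderated test over 56605 probes, with calls made where the adjusted p was 0.05 or lower and the log2 difference 0.5 or more in either direction, 0 of the 100 genes were called in Old against Young, where 0.62% of all probes were called, 0 in Young-Abx against Young (0.344% of probes) and 0 in Old-LP against Young (0.0% of probes). At an unadjusted p of at most 0.05 with the same fold, 3, 1 and 0 members passed, beside 3396, 2181 and 632 of all 56605 probes. The 3 comparisons share the Young arrays, on which the genes were chosen, so the counts are a description. Array C of each group lay on another slide than A and B, so the p-values measure a spread that mixes slides and pools of mice. The median log2 difference of the members was -0.04, -0.04 and -0.02, beside 0.01, -0.02 and 0.00 over all probes.

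The largest differences among the members concerned Ear2, Retnla, H2-Ab1, Mgl2, H2-Q6 and Mfge8, named after their values were seen. Retnla gave 16.35, 16.25 and 15.38 in Young and 14.48, 14.39 and 15.78 in Old, a log2 difference of -1.11 (SE 0.42, adjusted p = 0.612 with limma), so that A and B were lower in Old and C was higher. Ear2 gave 16.42, 16.39 and 16.62 in Young and 14.62, 14.61 and 16.70 in Old (difference -1.16, SE 0.55, adjusted p = 0.887 with limma). On C both genes were higher in Old than on the other Old arrays, and the groups overlapped. Old C lay on slide 3 and Young C on slide 2, with 37.3% and 44.0% of spots well above background. A contrast between them thus mixes group, slide and dimness. H2-Ab1 stood at 17.62, 17.38 and 16.86 in Old, a difference of 0.79 (SE 0.38, adjusted p = 0.889 with limma) in the same direction for each letter. Only the brightest of its 4 probes was compared. The means in Young and Old were 17.01 and 16.97 for Cd74, 16.81 and 16.92 for H2-Eb1, and 15.89 and 15.69 for Ctss. With the replicate letter as a block H2-Ab1 was called in Old (adjusted p = 0.0417 with limma), and with the slide as a block it was called in Old (adjusted p = 0.0480) and in Young-Abx (log2 difference 0.75, adjusted p = 0.0308).

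Within slide 1, on arrays A and B alone, 14 members were called in Old against Young (9.17% of all probes), 3 of them higher, and 11 in Young-Abx against Young (6.14% of probes), 3 higher, and 0 in Old-LP against Young (0.0389% of probes). This fit has 2 arrays a group, A and B, which lay close together (r of 0.997 across probes in Young). Its p-values measure only that small spread, and that A and B are separate pools rests on the legends. In Old, Retnla fell by 1.86, Ear2 by 1.79 and Mgl2 by 1.05 on the log2 scale there, with adjusted p = 3.1e-04, 8.7e-04 and 0.0021 from limma, and Mfge8 and H2-Ab1 rose by 0.77 and 0.67, with adjusted p = 0.0109 and 0.0368. With A and B averaged to 1 array, 0 members and 0 probes were called in any of the 3 comparisons. Slide 2 held 1 Young and 1 Young-Abx array and slide 3 no Young array, so no test was possible within them.

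Several lists of cell type markers moved with these genes. The mean of the 5 eosinophil markers that passed in Young was 10.42, 10.47 and 9.83 on the Young arrays and 8.79, 8.62 and 10.33 on the Old arrays, low on A and B and high on C like Ear2. In Young-Abx it was 9.28, 9.31 and 8.99 and in Old-LP 10.56, 10.49 and 9.69. Neutrophil markers showed the same order in Old, with 9.78, 9.76 and 11.43 against 10.58, 10.52 and 10.88 in Young, as did mast cell and basophil markers (9.85 and 9.62 on A and B against 10.36 and 10.37, and higher than in Young on C) and B cell markers (7.93, 7.77 and 9.52 against 8.22, 8.25 and 8.87). Markers of mature dendritic cells were lower on every Old array than on the Young array of the same letter (12.22, 12.19 and 12.62 against 12.60, 12.62 and 12.74). They gave 12.29, 12.37 and 12.55 in Young-Abx and 12.68, 12.68 and 12.82 in Old-LP. The dendritic cell markers were likewise lower on every Old array, with 11.26, 11.21 and 11.51 against 11.51, 11.56 and 11.54. So were T cell markers, with 10.59, 10.69 and 9.79 against 10.96, 10.98 and 11.24, and NK cell markers, with 9.24 on each against 9.86, 9.78 and 10.36. Erythroid and megakaryocyte markers gave 11.13, 11.14 and 11.50 in Old against 10.10, 10.12 and 10.34 in Young, higher on every array. They gave 11.26, 11.26 and 11.41 in Young-Abx and 10.19, 10.14 and 10.79 in Old-LP. The 4 stromal and endothelial markers gave 8.54, 8.62 and 8.54 in Old against 7.02, 7.28 and 7.59 in Young. Their means were 8.34, 8.39 and 8.39 in Young-Abx and 7.59, 7.42 and 7.29 in Old-LP. Macrophage and monocyte markers gave 13.39, 13.41 and 12.98 in Old against 13.39, 13.42 and 13.35 in Young. On array C the contrasts of Old with Young also lie across slides 3 and 2. Each list mean held only the markers that were above background on every Young array. Markers chosen this way favour a higher mean in Young than in the other groups, so the comparisons are a description. The part of these cell types, of the slide or of this choice of markers in the differences was not tested.

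**Figure D5:**
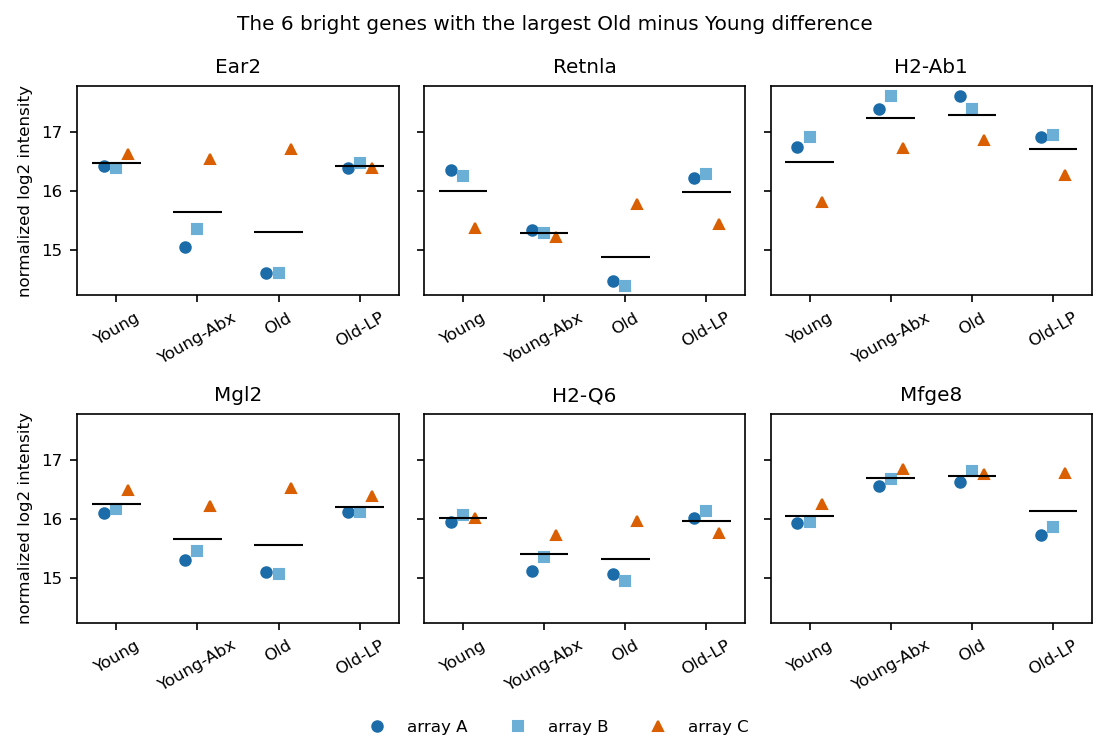
Normalized log2 intensity (y axis) of the 6 bright genes with the largest Old minus Young difference, by group (x axis), one marker per array A, B and C and a black line at the mean. Array C lay on slide 2 for Young and Young-Abx and on slide 3 for Old and Old-LP. In Ear2, Retnla, Mgl2 and H2-Q6 arrays A and B of Old lie below those of Young, while array C of Old lies above the Young array C in Ear2, Retnla and Mgl2 and just below it in H2-Q6 (15.96 against 16.02), and in H2-Ab1 each Old array lies above the Young array of the same letter.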

How the data were processed

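RNA of 12 samples was hybridised by the authors to Agilent one-colour (Cy3) mouse arrays. Per the file headers the scanner files were written by Feature Extraction 12.1.1.1, whereas the labels give version 10.5. The deposited values used were the processed signal, an intensity already background-corrected by that software, and its background flags. The authors' value table holds log2 values, quantile-normalized per the study's methods, and served as an alternative. Outlier spots were set to missing, log2 intensities were quantile-normalized over the 12 arrays (limma 3.58.1, R 4.3.3), spots of a probe averaged, and 35405 of 56605 probes named through RefSeq accessions. A gene's level was that of its brightest probe above background on all 3 Young arrays. The 3 comparisons used limma over 12 arrays with group means and no replicate block. The fit was tested on simulated data with independent noise on each array. Deviations shared between arrays, as seen here, were not simulated, so that test does not vouch for these calls. Same-letter arrays of different groups deviated together (r 0.41 to 0.71 over 18 pairs), arrays A and B likewise (0.45 to 0.57), and C against A or B oppositely (-0.66 to -0.47), on slides 2 and 3 alike. Deviations from a mean of 3 arrays, with A and B alike, set C opposite by construction. The values thus show the split of C from A and B and no pairing by letter. The replicate block was kept as an alternative only. Members and lists were chosen with earlier results of these data known. Named genes were the 30 brightest, the 3 brightest of each list, immune genes above background on no array, genes next to the limits and those most variable over arrays; a few genes that the rule names are not reported here. Normexp was run on the median signal, in place of the mean signal planned, with an offset of 50.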

Additional observations from a re-analysis of the deposited data

How the results depend on the processing

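The count of genes above background was 12295, between 12298 and 15300 when 1 Young array was left out, 15307 on at least 2 arrays and 15708 with the positive and significant flag; for immune genes it was 250, between 250 and 279, 279 and 272. Of the 100 brightest genes 87 to 96 stayed when 1 Young array was left out, 97 under the 75th percentile shift, normexp or the authors' table, and 74 with the mean over probes. No spot was saturated, so leaving out saturated spots could remove no gene. Calls among the 100 were 0 under all normalizations and the filter on dim probes. The replicate block gave 1, 0 and 0 (Old, Young-Abx and Old-LP), with 1233, 557 and 1 probes called in place of 351, 195 and 0, and the slide as a block 1, 1 and 0, with 1528, 1156 and 1. Slide 1 alone, chosen after seeing the data, gave 14, 11 and 0, with 5188, 3477 and 22 probes, and averaging A and B, likewise added, gave 0 probes. Leaving out any 1 array gave between 0 and 0 members, and left 112 to 590 probes in Old against Young, the highest without Old array C and the lowest without Young array A, and 54 to 402 in Young-Abx against Young. The 75th percentile shift moved the median difference of all probes to 0.15 in Old and -0.14 in Young-Abx, and that of the 100 genes to 0.15 and -0.13. Dimness on array C limited detection; the causes were not tested.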
